A study of Homo sapiens with 42 samples.

Results

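K562, an established erythroleukaemic cell line derived from chronic myeloid leukaemia and carrying the BCR-ABL1 fusion kinase, was exposed to 110 mM KCl for 1 h (KCl 1h) and compared with untreated cells (CTRL) at the level of poly(A) mRNA. The members are the 6 libraries so labelled, 3 KCl 1h and 3 CTRL, out of 42 in the series, and their genes. The KCl was added to the culture medium as a hyperosmotic shock, and the untreated cells received no addition. Both groups are the same line without any edit or transgene, and the 3 libraries of a group are given as biological replicates. Further groups of the same line, each of 3 libraries, served for direct comparison: mRNA after 110 mM KCl for 3 h (KCl 3h), mRNA after 1 h of 5 μM JTE-607, a compound that targets the 3′ end nuclease CPSF73 (JTE 1h), and nuclear RNA depleted of ribosomal RNA from untreated cells and from cells given KCl for 1 h. Added KCl raises external potassium and osmolarity at once, and no group received another osmolyte, so both cannot be told apart here.

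A hyperosmotic medium draws water out of cells, and the resulting shrinkage is known to activate stress kinases of the MAP kinase family, to induce immediate early genes within minutes, and later to induce transporters and enzymes that gather compatible osmolytes under the transcription factor NFAT5. Hyperosmotic stress is also known to impair 3′ end cleavage of new transcripts, so that polymerase runs past the end of genes into what lies downstream. An mRNA library made at 1 h holds both new transcripts and the much larger store of transcripts made before the shock, so stable messages can show little change while short-lived ones can move.

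The deposited values were raw counts of read pairs per gene, given here as CPM, a gene's count scaled to a common library total. Total counts were between 17855236 and 19031221 in CTRL and were 19270518, 62953314 and 42474454 in KCl 1h replicates 1 to 3, so the treated group was sequenced more deeply. Genes were tested with the quasi-likelihood method of edgeR, and p-values were adjusted by Benjamini-Hochberg over 18095 genes. To be called, a gene needed an adjusted p below 0.05 together with a log2 fold change above 0.6 or below -0.6. At this rule 5.45% of genes were called, 2.51% higher and 2.94% lower. The summed level of 9 K562 markers, among them the fetal globins, GATA1 and the transferrin receptor, was 4287 to 5676 CPM in CTRL and 4370 to 6156 CPM in KCl 1h. Of 12 markers of other cell types 8 were tested and 0 were called, with a summed level of 119.8 to 121.9 CPM in CTRL and 111.9 to 124 CPM in KCl 1h, most of it from EPCAM, while MS4A1 was at 0 in every library. A lower count in RNA pooled from a culture cannot tell fewer cells with a transcript from less of it per cell.

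Calls were concentrated among low transcripts. Of 8860 genes with a mean of at least 10 CPM in the higher group, 65 rose and 69 fell, so 0.734% were called higher, 0.779% lower and 1.51% in all. The largest of the 65 rises were those of GADD45B, FOS, LSMEM1 and FOSB, and the 69 that fell included 20 long non-coding RNAs (lncRNAs) and 14 pseudogenes. KCl 1h replicate 3 was the highest of its group for 43 of the 65 rises and replicate 1 the lowest for 37, while replicate 1 was highest for 37 of the 69 falls. In 61 of the 65 and 68 of the 69 the treated and untreated libraries did not overlap, a state shared by 1140 of all 8860.

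GADD45B, which encodes a stress sensor that activates the p38 and JNK pathway, rose most among these. It was at 0.606, 0.314 and 1.39 CPM in CTRL replicates 1 to 3 and at 13.3, 8.19 and 23.4 CPM in KCl 1h replicates 1 to 3, a log2 fold change of 4.28 (SE 0.51, edgeR adjusted p 8.96e-06). All treated libraries lay above all untreated ones, with replicate 2 lowest and replicate 3 highest in the treated group. FOS, the AP-1 subunit and best-known immediate early gene, was at 0.827, 3.20 and 2.73 CPM in CTRL and at 34.1, 15.3 and 42.1 CPM in KCl 1h (log2 fold change 3.75, SE 0.49, edgeR adjusted p 2.89e-05). FOSB, a FOS relative that also pairs with JUN proteins, went from 1.65, 1.10 and 2.79 CPM to 19.98, 10.2 and 30.2 CPM (edgeR log2 fold change 3.45, SE 0.43, adjusted p 1.49e-05). As for GADD45B, the lowest treated value of both FOS genes was that of replicate 2, and it still stood well clear of the untreated range. The partner JUN was at 15.98, 18.5 and 24.9 CPM in CTRL and 48.8, 43.0 and 91.7 CPM in KCl 1h, a log2 fold change of 1.63 (SE 0.27, edgeR adjusted p 0.000362).

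Promoter sequences of the leading rises are shown because several hold the same core element near the start. RefSeq promoter windows of GRCh38.p14, from 250 bases before to 50 bases after the start, were matched to 11 of the 15 largest rises, and 5 of the 11 held a TATA box (TATAAA on either strand): FOS, FOSB, GADD45B, HEXIM1 and SGK1. The 100 bases before the start of 4 of them follow, 5′ to 3′, with the TATA box in capitals. It begins 33 bases before the start in FOS, 30 in FOSB, 31 in GADD45B and 29 in HEXIM1. In SGK1 the same letters lie farther upstream than in these 4. They begin at base 155 of the SGK1 window, against base 218 of the FOS window.
FOS, chr14:75278728-75278827, plus strand: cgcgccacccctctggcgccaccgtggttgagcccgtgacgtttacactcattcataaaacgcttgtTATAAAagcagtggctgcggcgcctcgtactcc
FOSB, chr19:45467896-45467995, plus strand: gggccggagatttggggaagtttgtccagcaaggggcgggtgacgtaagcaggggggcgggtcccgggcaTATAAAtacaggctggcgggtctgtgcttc
GADD45B, chr19:2476027-2476126, plus strand: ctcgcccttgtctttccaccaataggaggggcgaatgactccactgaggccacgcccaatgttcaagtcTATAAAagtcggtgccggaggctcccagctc
HEXIM1, chr17:45148375-45148474, plus strand: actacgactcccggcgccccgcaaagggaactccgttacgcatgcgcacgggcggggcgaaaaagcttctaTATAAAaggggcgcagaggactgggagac

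Over all 11223 tested genes with a promoter window, 674 held a TATA box, which is 6.01%. The box was in 39 of the 272 windows of called rises (14.3%) and in 13 of the 195 windows of called falls (6.67%). Among genes of at least 10 CPM the shares were 25.5% of 47 rises, 5.13% of 39 falls and 4.98% of all 7048. The AP-1 site TGACTCA was in 5.15% of rises, 2.56% of falls and 3.06% of all windows, and the cyclic AMP response element TGACGTCA in 2.21%, 3.59% and 3.31%. The CCAAT box was in 32.7%, 37.4% and 36.9%, and the CArG box, bound by serum response factor, in 1.47%, 1.03% and 0.998%. The E-box CACGTG was in 7.35% of rises, 9.74% of falls and 10% of all, the EGR site GCGTGGGCG in 0.368%, 2.05% and 1.27%, and the NFAT5 element in 2.57%, 2.56% and 2.93%. Motifs were searched on both strands and may overlap, and a match is a description of letters in the window.

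The other named rises had varied roles. SGK1, a kinase that regulates ion transporters and is known to be induced by cell shrinkage, was at 6.89, 4.61 and 10.3 CPM in CTRL and 34.6, 29.3 and 46.5 CPM in KCl 1h (log2 fold change 2.34, SE 0.36, edgeR adjusted p 0.000148). SNAI1, a zinc finger repressor of epithelial genes, went from 7.16, 6.86 and 12.7 CPM to 41.6, 30.6 and 61.3 CPM (edgeR log2 fold change 2.32, SE 0.31, adjusted p 3.47e-05). Neither gene had an untreated library near the treated range. BRD2, a bromodomain protein that reads acetylated histones, was at 288, 234 and 316 CPM in CTRL and 672, 707 and 827 CPM in KCl 1h, which is a 2.63-fold rise (log2 fold change 1.40, SE 0.15, edgeR adjusted p 1.71e-06). HEXIM1, which holds the elongation kinase P-TEFb inactive, went from 53.0, 44.8 and 75.2 CPM to 118, 118 and 166 CPM (edgeR log2 fold change 1.21, SE 0.24, adjusted p 0.00176). For both transcription regulators the treated libraries were above every untreated one, and for HEXIM1 replicate 3 was highest in each group.

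SEMA4D, a transmembrane semaphorin, had the narrowest spread of the large rises, with 3.14, 3.62 and 3.51 CPM in CTRL and 11.7, 14.8 and 15.7 CPM in KCl 1h (log2 fold change 2.04, SE 0.15, edgeR adjusted p 1.21e-08). NR4A2, an orphan nuclear receptor of the immediate early class, went from 5.18, 8.12 and 8.75 CPM to 26.04, 23.6 and 21.5 CPM (log2 fold change 1.69). IER3, an immediate early gene linked to cell survival, went from 6.01, 7.33 and 13.0 CPM to 34.8, 21.0 and 38.1 CPM (log2 fold change 1.83). No group overlapped the other in any of these. PNRC1, a nuclear receptor coactivator, was at 2.54, 4.98 and 3.01 CPM in CTRL and 16.9, 12.3 and 11.4 CPM in KCl 1h (log2 fold change 1.94), and ZFP36L1, which binds AU-rich elements and speeds mRNA decay, was at 22.3, 30.0 and 22.4 CPM and then 66.9, 50.2 and 49.4 CPM (log2 fold change 1.15). In both, KCl 1h replicate 1 and CTRL replicate 2 were the highest of their groups. LSMEM1 rose by a log2 fold change of 3.72 (SE 0.31, edgeR adjusted p 7.75e-08), from 1.10, 1.41 and 0.223 CPM to 13.5, 9.98 and 13.2 CPM, but it overlaps IFRD1 on the same strand. The pseudogene SMG1P3, with a log2 fold change of 1.04, has near-identical copies in the genome, so its count is uncertain.

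**Figure D1:**
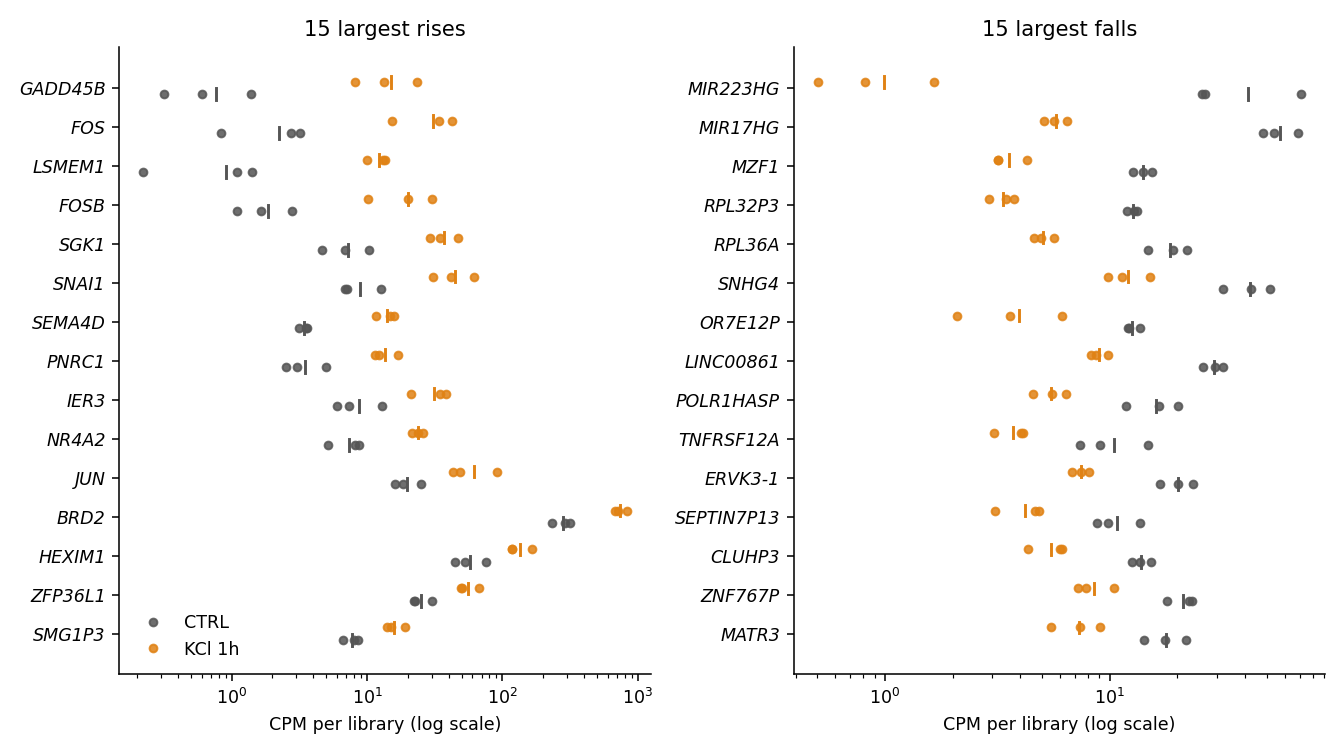
CPM per library on a log axis for the 15 largest rises (left) and the 15 largest falls (right) among called genes that reached 10 CPM on average and whose groups did not overlap; each point is 1 library, grey for CTRL and orange for KCl 1h, and the short vertical lines are the group means of 3. The orange points of GADD45B sit between 8.19 and 23.4 CPM and those of MIR17HG between 5.13 and 6.45 CPM, apart from the grey ones in each case.

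The immediate early response covered a minority of its class. Of 29 tested members of a list of immediate early genes, most of them for transcription factors, 7 rose and 0 fell, beside 2.51% of all genes that rose. The list's median log2 fold change was 0.19 against 0.01 over all genes. The 7 were FOS, FOSB, KLF4, IER3, NR4A2, JUN and JUNB. KLF4, a reprogramming factor of the Krüppel family, was low, at 0.331, 0.576 and 0.223 CPM in CTRL and 1.76, 1.07 and 1.84 CPM in KCl 1h (log2 fold change 2.00, edgeR adjusted p 0.00661). JUNB, another AP-1 subunit, had overlapping groups, with 19.3, 20.7 and 31.5 CPM in CTRL and 47.0, 29.2 and 63.8 CPM in KCl 1h (log2 fold change 0.97, edgeR adjusted p 0.0170). EGR1, usually induced together with FOS, was at 40.9, 159 and 110 CPM in CTRL and 71.2, 60.2 and 165 CPM in KCl 1h, a log2 fold change of -0.06 (edgeR adjusted p 1.00), and its libraries varied widely within both groups. The stress factor ATF3 had log2 fold change 0.42 and IER2 0.29, and neither was called.

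The feedback arm of the MAP kinase pathway was mostly below the call at 1 h. Of 13 tested phosphatases and feedback inhibitors only ERRFI1, an inhibitor of the EGF receptor, passed, from 2.09, 2.62 and 3.57 CPM to 7.40, 4.75 and 6.37 CPM (log2 fold change 1.15, edgeR adjusted p 0.00766), and the list's median was 0.06. The call was lost without CTRL replicate 1, at 0.99. DUSP1, the phosphatase that acts on p38 and JNK, was at 10.4, 10.7 and 11.7 CPM in CTRL and 14.3, 12.7 and 17.0 CPM in KCl 1h (log2 fold change 0.42, edgeR adjusted p 0.0984), groups that did not overlap although the test was not passed. Of 18 genes of the GADD45 and growth arrest list only GADD45B was called, with a list median of 0.14. Its relative GADD45A was at 62.7, 102 and 61.7 CPM in CTRL and 99.2, 58.5 and 54.5 CPM in KCl 1h and was not called. In the list of ZFP36 and decay factors, ZFP36L1 and PAN3, a subunit of a deadenylase, rose among 15 tested, beside 2.51% of all genes. PAN3, at 39.0, 37.7 and 34.9 CPM in CTRL and 57.6, 57.3 and 54.8 CPM in KCl 1h, lay on the fold threshold with 0.61, and was not called without CTRL replicate 3 (0.55) or KCl 1h replicate 1 or 2 (0.59 and 0.60). ZFP36 itself was at log2 fold change 0.39 (edgeR adjusted p 0.106). Of 18 NF-kB pathway and cytokine genes TNF alone was called, and the inhibitor NFKBIA was at 0.30 without a call.

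Genes of the adaptive osmotic programme were for the most part not called at this time. Of 9 tested genes of osmolyte uptake and synthesis 1 rose, SGK1, and the list's median log2 fold change was 0.11. NFAT5, the master regulator of that programme, was at 87.9, 79.7 and 80.5 CPM in CTRL and 104, 119 and 152 CPM in KCl 1h, and its log2 fold change of 0.60 (SE 0.13, edgeR adjusted p 0.00384) fell just short of the fold threshold of 0.6. It passed without CTRL replicate 1, KCl 1h replicate 1 or KCl 1h replicate 2, at 0.64, 0.70 and 0.63. The amino acid transporter SLC38A2 was at 232, 675 and 245 CPM in CTRL and 1151, 922 and 855 CPM in KCl 1h (log2 fold change 1.34, edgeR adjusted p 0.124), with CTRL replicate 2 far above the other untreated libraries and still below all treated ones. The NFAT5 targets SLC5A3, a myo-inositol transporter, SLC6A6, a taurine transporter, and AKR1B1, aldose reductase, had log2 fold changes of -0.14, -0.10 and 0.11. Of 20 ion transport and cell volume genes 0 were called by edgeR and 0 by DESeq2, with 0 at an unadjusted p under 0.05. SLC12A2, the sodium, potassium and chloride cotransporter that restores cell volume, was at 55.8, 60.6 and 63.9 CPM in CTRL and 60.4, 66.8 and 70.8 CPM in KCl 1h.

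The heat shock and unfolded protein programmes did not pass the test either. Of 19 heat shock genes 0 were called by edgeR and 0 by DESeq2 and 1 had an unadjusted p under 0.05, although 17 of the 19 had a log2 fold change above 0 and the median was 0.17. Of 22 genes of the ATF4 and unfolded protein response list 0 were called by edgeR and by DESeq2, and 0 had an unadjusted p under 0.05. ATF4 itself, the effector of the integrated stress response, was at 149, 420 and 157 CPM in CTRL and 442, 195 and 194 CPM in KCl 1h, so the single high library was replicate 2 among the untreated and replicate 1 among the treated. These libraries correlated across genes at r 0.754, and the test did not pair libraries. Altogether 13 of the 27 lists, with 204 tested members, held 0 genes called by edgeR, while 1 of these members was called by DESeq2 and 17 had an unadjusted p under 0.05. They covered ID, SMAD and Notch targets, MYC and its partners, the BCL2 family, NRF2 targets, SR splicing factors, 3′ end processing factors, abundant lncRNAs, mitosis genes and globins, besides those above. The DESeq2 call was in the ID, SMAD and Notch list, whose member ID2, an inhibitor of differentiation factors, was at 5.01, 2.36 and 13.2 CPM in CTRL and 17.0, 15.2 and 39.1 CPM in KCl 1h (log2 fold change 1.80, edgeR adjusted p 0.0903).

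Among 13 tested genes of P-TEFb and its regulators HEXIM1 was the single call, with a list median of 0.185, and the kinase subunit CDK9 was at 47.2, 42.9 and 45.7 CPM in CTRL and 41.4, 41.0 and 40.6 CPM in KCl 1h. Zinc finger genes of chromosome 19, most of which encode KRAB repressors, had a median of 0.005 over 207 tested, with 5 higher and 3 lower. Neither share exceeded that of all genes, 2.51% higher and 2.94% lower. ZNF439 rose from 0.110, 0.262 and 0.223 CPM to 1.71, 1.62 and 1.81 CPM (log2 fold change 3.07, edgeR adjusted p 1.79e-05), and ZNF404 had a log2 fold change of 2.48. Both stayed at low levels, with all treated libraries above the untreated ones.

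**Figure D2:**
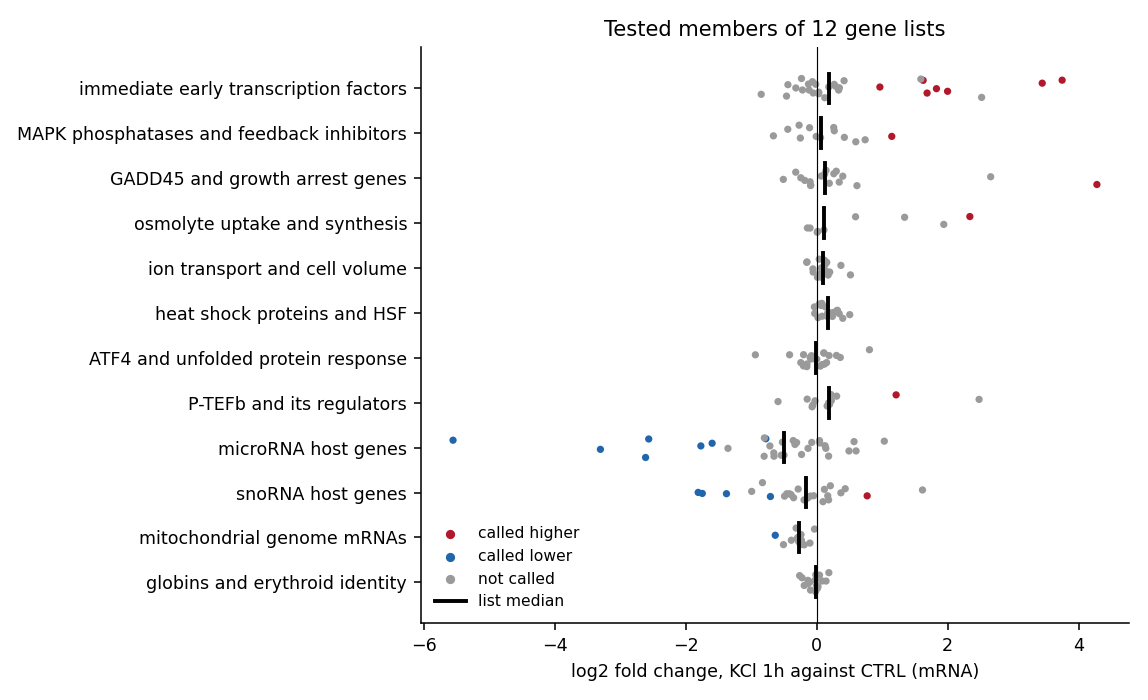
Log2 fold change of KCl 1h against CTRL for the tested members of 12 gene lists; each point is 1 gene, red if called higher, blue if called lower and grey if not called, and the thick black bar is the list's median. The 7 red points of the immediate early list stand to the right of a cluster of grey points around a median of 0.19, and the 7 blue points of the microRNA host genes stretch to -5.55.

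Host genes of microRNAs were among the largest falls. Such genes are named for microRNA hairpins in their introns or exons, which the Drosha complex cuts out in the nucleus, a step that breaks the host transcript when the hairpin lies in an exon. Of 85 hosts listed 31 were tested, of which 7 fell and 0 rose, beside 2.94% of all genes that fell, and the median log2 fold change of the 31 was -0.50. Hosts such as MIR17HG are lncRNAs, and of all 2414 lncRNAs tested 10.6% fell, with a median of -0.25. MIR17HG, host of the miR-17 to miR-92a cluster, was at 68.9, 48.1 and 54.0 CPM in CTRL and 5.13, 6.45 and 5.65 CPM in KCl 1h, and its log2 fold change was -3.30 (SE 0.32, edgeR adjusted p 6.48e-07). The 3 treated libraries agreed closely and lay far below the untreated ones. MIR223HG, host of a myeloid microRNA, was at 25.7, 70.9 and 26.7 CPM in CTRL and 1.66, 0.502 and 0.814 CPM in KCl 1h (log2 fold change -5.55, SE 1.22, edgeR adjusted p 0.00663). Without KCl 1h replicate 2 the call was lost, at -5.16. MIR142HG, host of a blood-cell microRNA, went from 12.3, 5.34 and 10.7 CPM to 1.14, 2.09 and 1.40 CPM (edgeR log2 fold change -2.56, SE 0.46, adjusted p 0.000884). CTRL replicate 2 was the highest untreated library for MIR223HG and the lowest for MIR142HG, and neither gene had overlapping groups.

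The other hosts that fell were low. MIR4453HG was at 5.95, 7.44 and 6.30 CPM in CTRL and 2.69, 2.31 and 1.60 CPM in KCl 1h (log2 fold change -1.59). MIRLET7IHG was at 3.97, 2.62 and 3.51 CPM and then 1.45, 2.18 and 2.16 CPM (log2 fold change -0.77, edgeR adjusted p 0.0475). MIR503HG and MIRLET7A1HG were low in every library and had log2 fold changes of -1.77 and -2.61. No hairpin of the RefSeq table lies within the annotated bounds of MIRLET7A1HG. MIR9-1HG, by contrast, was at 1.21, 1.10 and 1.45 CPM in CTRL and 2.43, 1.62 and 1.65 CPM in KCl 1h, without a call. Hosts were matched by gene ID, and the oligo-dT libraries measure the host transcript, not the mature microRNA.

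The mature microRNAs encoded in the 3 hosts with the largest levels are printed to show what these transcripts carry. MIR17HG lies at chr13:91347820-91354579 on the plus strand and holds 6 hairpins and 12 mature sequences in the RefSeq table of GRCh38.p14, of which the main arms are given. MIR223HG lies at chrX:66015461-66020422 on the plus strand, and MIR142HG at chr17:58330884-58332508 on the minus strand. Sequences run 5′ to 3′ with the seed, bases 2 to 8, in capitals.
hsa-miR-17-5p: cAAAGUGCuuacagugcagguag
hsa-miR-20a-5p: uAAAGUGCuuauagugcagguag
hsa-miR-18a-5p: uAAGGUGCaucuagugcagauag
hsa-miR-19a-3p: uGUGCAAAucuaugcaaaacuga
hsa-miR-19b-3p: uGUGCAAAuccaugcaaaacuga
hsa-miR-92a-3p: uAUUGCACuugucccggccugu
hsa-miR-223-3p: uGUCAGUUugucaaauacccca
hsa-miR-142-3p: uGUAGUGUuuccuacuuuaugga
hsa-miR-142-5p: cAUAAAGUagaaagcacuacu
The seed AAAGUGC is common to miR-17-5p and miR-20a-5p, and GUGCAAA to miR-19a-3p and miR-19b-3p. The remaining seeds differ from each other.

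Host genes of small nucleolar RNAs (snoRNAs), which guide the modification of ribosomal RNA, moved in both directions. Of 26 tested, 4 fell and 1 rose, with a median log2 fold change of -0.17. Over all genes 2.94% fell and 2.51% rose, and over all lncRNAs 10.6% fell and 2.78% rose, with a median of -0.25. SNHG4 went from 51.6, 31.9 and 42.6 CPM to 15.1, 11.3 and 9.86 CPM (edgeR log2 fold change -1.81, SE 0.22, adjusted p 7.73e-06), SNHG20 from 9.76, 8.75 and 11.3 CPM to 3.16, 3.25 and 2.49 CPM (log2 fold change -1.74), and SNHG19 from 8.54, 7.49 and 8.92 CPM to 3.62, 3.15 and 2.91 CPM (log2 fold change -1.38). In each the groups were separate. SNHG3 was at 227, 202 and 176 CPM in CTRL and 120, 155 and 96.3 CPM in KCl 1h (log2 fold change -0.70, edgeR adjusted p 0.0384), and its call was lost without CTRL replicate 1 or 2 or KCl 1h replicate 1 or 3, at log2 fold changes of -0.61, -0.70, -0.69 and -0.55. ZFAS1 rose, from 27.9, 19.96 and 28.6 CPM to 39.9, 46.5 and 44.2 CPM (log2 fold change 0.77, edgeR adjusted p 0.00413). SNHG4 shares its position with a MATR3 gene model (ENSG00000280987), which fell by 1.31 on the log2 scale. By the counting settings that the authors give, pairs over exons of both were assigned to neither, so both counts are partial and uncertain.

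Protein-coding genes with large falls included factors of several kinds. MZF1, a myeloid zinc finger factor, was at 15.4, 13.99 and 12.7 CPM in CTRL and 4.30, 3.18 and 3.19 CPM in KCl 1h, a log2 fold change of -2.002 (SE 0.18, edgeR adjusted p 2.14e-07). TNFRSF12A, the receptor for the cytokine TWEAK, went from 9.04, 7.39 and 14.8 CPM to 4.04, 3.05 and 4.09 CPM (edgeR log2 fold change -1.49, SE 0.23, adjusted p 0.000163). SOCS1, a STAT5 target and inhibitor of JAK kinases, was low in both groups, with 1.21, 1.26 and 1.56 CPM in CTRL and 0.311, 0.201 and 0.488 CPM in KCl 1h (log2 fold change -2.01, edgeR adjusted p 0.00426). No treated library reached the untreated range for any of them. SOCS1 was the only call among 8 tested STAT5 targets, whose median was -0.17. MZF1 overlaps an antisense gene, and since pairs were counted without strand its count cannot be told apart from antisense reads.

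The 84 tested messages of cytosolic ribosomal proteins had a median log2 fold change of 0.04, with 3 called lower and 0 higher. Over all genes 2.94% were called lower and 2.51% higher. RPL36A fell from 21.99, 14.8 and 19.1 CPM to 4.97, 5.66 and 4.58 CPM (edgeR log2 fold change -1.87, SE 0.23, adjusted p 8.47e-06), RPS10 from 5.01, 3.19 and 3.90 CPM to 2.12, 1.89 and 1.30 CPM (log2 fold change -1.20), and RPL17 from 7.83, 7.02 and 6.36 CPM to 4.25, 4.24 and 4 CPM (log2 fold change -0.76). The call of RPL17 was lost without CTRL replicate 1 or 2 or KCl 1h replicate 2 or 3, at log2 fold changes of -0.68, -0.77, -0.78 and -0.74. Each of the 3 overlaps an annotated readthrough gene on the same strand that joins it to its neighbour, RPL36A-HNRNPH2, RPS10-NUDT3 and RPL17-C18orf32. The counting settings that the authors give include no option to count a pair for more than 1 gene. Pairs over exons shared with the readthrough gene were thus left out, so these counts are uncertain and need not follow the whole message. RPL22, the first of the list, was at 749, 710 and 729 CPM in CTRL and 771, 843 and 714 CPM in KCl 1h. Of 13 messages of the mitochondrial genome 0 had a log2 fold change above 0, the median was -0.27, and 1 was called. This was MT-ND3, a subunit of complex I, at 1116, 1088 and 1036 CPM in CTRL and 618, 836 and 639 CPM in KCl 1h (log2 fold change -0.63, edgeR adjusted p 0.00296), and its call was lost without KCl 1h replicate 1 or 3, at -0.55 and -0.57. The share of counts from the mitochondrial genome was 10 to 10.9% in CTRL and 8.26 to 9.95% in KCl 1h.

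Some falls were in pseudogenes and lncRNAs with no known product. RPL32P3 went from 13.3, 11.9 and 12.8 CPM to 2.90, 3.45 and 3.74 CPM (edgeR log2 fold change -1.90, SE 0.16, adjusted p 7.75e-08), ZNF767P from 23.3, 18.0 and 22.5 CPM to 7.195, 7.85 and 10.49 CPM (log2 fold change -1.31), and LINC00861 from 29.3, 32.1 and 26.1 CPM to 8.65, 8.25 and 9.84 CPM (log2 fold change -1.71). Treated and untreated libraries were apart in all of these. POLR1HASP, CLUHP3, SEPTIN7P13 and OR7E12P fell by log2 fold changes between -1.72 and -1.34, and the endogenous retrovirus gene ERVK3-1 had a log2 fold change of -1.44. Pseudogenes share reads with their parent genes, so the counts of these are uncertain. NEAT1, the architectural lncRNA of nuclear paraspeckles, was at 208, 210 and 102 CPM in CTRL and 74.5, 40.8 and 21.6 CPM in KCl 1h (log2 fold change -1.93, SE 0.69, edgeR adjusted p 0.124), with groups that did not overlap and wide spread within both. It was called with no filter on low counts (-1.91) and with the replicate block (-2.02). As numbered, that block may set CTRL replicates 1 and 2 with unlike libraries.

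By gene type, the falls were weighted towards non-coding transcripts. Of 12704 protein-coding genes tested 316 rose (2.49%) and 142 fell (1.12%), with a median log2 fold change of 0.02. Of 2414 lncRNAs 67 rose (2.78%) and 255 fell (10.6%), with a median of -0.25. The difference in falls was also present among genes of at least 10 CPM, where 20 of 178 lncRNAs fell (11.2%) against 33 of 8313 protein-coding genes (0.397%). Transcribed unprocessed pseudogenes fell in 33 of 325 cases (10.2%), genes marked TEC (to be experimentally tested) in 23 of 173 (13.3%) and miscellaneous RNAs in 7 of 36. Processed pseudogenes, which resemble the messages they came from, fell in 31 of 1760 (1.76%). In nuclear RNA the lncRNAs moved in both directions, with 758 of 4196 higher (18.1%) and 812 lower (19.4%).

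**Figure D3:**
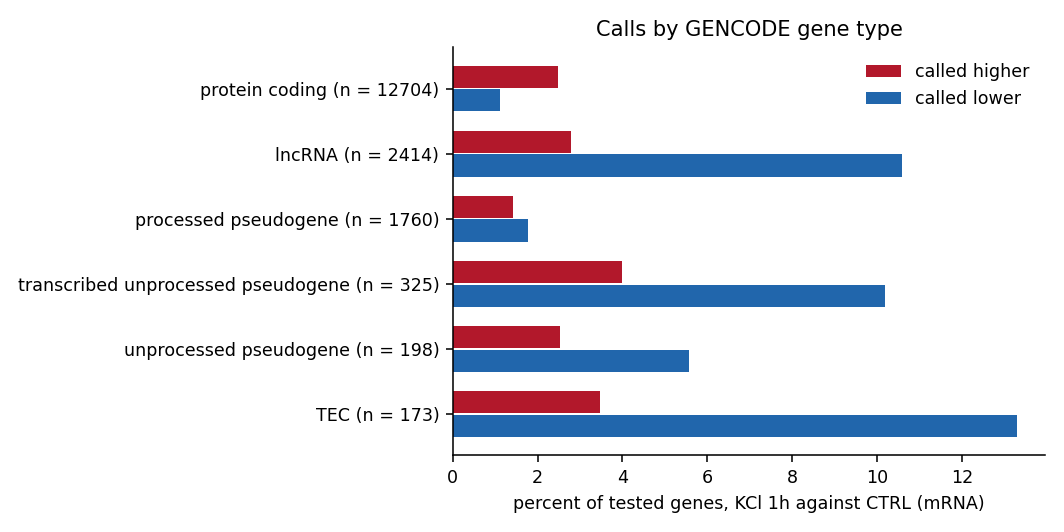
Percent of tested genes called higher (red) and lower (blue) in KCl 1h against CTRL, by GENCODE 44 gene type, with the number tested in brackets. The blue bar is longer than the red one for lncRNAs (10.6% against 2.78%) and shorter for protein-coding genes (1.12% against 2.49%).

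Genes that fell were shorter over all levels, but not in exonic length at 10 CPM or more. The 532 called lower had a median span of 4780 bases and a median exonic length of 2186 bases, 35.7% had a single exon and 26.7% were protein coding. Over all genes tested the values were 19885 bases, 3787 bases, 17.4% and 70.2%, and the 454 called higher were near these with 21889 bases, 3780 bases, 16.7% and 69.6%. Among genes of at least 10 CPM the median exonic length was 5485 bases for falls, 6272 for rises and 5188 for all, and the median span 13181, 46522 and 32527 bases. Low level went with being called. Below 1 CPM 8.79% of 4197 genes were called, from 1 to 3 CPM 12.7%, from 3 to 10 CPM 6.22%, from 10 to 100 CPM 1.83%, and from 100 CPM 0.634%. Treated and untreated libraries did not overlap for 441 of the 454 and 518 of the 532, and for 3228 of all genes tested.

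In 208 of the 454 rises every CTRL library held at most 3 counts, and their fold is given as a lower bound against a floor of 3 counts in each CTRL library, 0.163 CPM. YAP1P1, a processed pseudogene, was at 0 in all CTRL libraries and at 3.88, 4.86 and 6.44 CPM in KCl 1h, at least 31.0-fold higher. FGF18, a fibroblast growth factor, was at 0.0551, 0.0524 and 0 CPM in CTRL and 2.02, 3.36 and 4 CPM in KCl 1h, at least 19.2-fold higher. ACTA1, skeletal muscle actin, was at 0.110, 0 and 0.0558 CPM and then 2.07, 2.51 and 3.02 CPM, at least 15.5-fold higher. GRIP2, a scaffold of glutamate receptors, was at 0, 0.105 and 0.0558 CPM and then 1.92, 2.96 and 5.49 CPM, at least 21.2-fold higher. GRIP2 overlaps SLC6A6 on the other strand, and reads of such partners cannot be told apart. TNF, the inflammatory cytokine, was at 0 in all CTRL libraries and at 0.828, 0.301 and 0.605 CPM in KCl 1h, at least 3.54-fold higher.

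Among low genes, those just downstream of an expressed gene were called higher more often than isolated ones. A gene below 10 CPM that overlaps no gene and starts within 10000 bases downstream of the end of a same-strand gene of at least 10 CPM is named tandem here, and an isolated gene is one below 10 CPM with no such gene within that distance on either strand. Of 450 tandem genes 50 rose (11.1%) and 6 fell, with a median log2 fold change of 0.20. Of 4359 isolated genes 139 rose (3.19%) and 135 fell (3.1%), with a median of -0.01. The levels that define both classes are means over all 27 mRNA libraries, treated ones included. Genes near 0 in every CTRL library, in either class, were tested through treated libraries alone and could only rise. The counts of rises and falls are therefore a description and not a test of position. FGF18 and ACTA1 are tandem genes. So is GSTO2, an omega-class glutathione transferase, at mean levels of 0.744 CPM in CTRL and 4.21 CPM in KCl 1h (log2 fold change 2.49), and MARVELD2, a tight junction protein, at 0.203 and 1.99 CPM (log2 fold change 3.30). In nuclear RNA 206 of 427 tandem genes rose, with a median of 0.66, and 528 of 3288 isolated genes, with a median of 0.05.

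**Figure D4:**
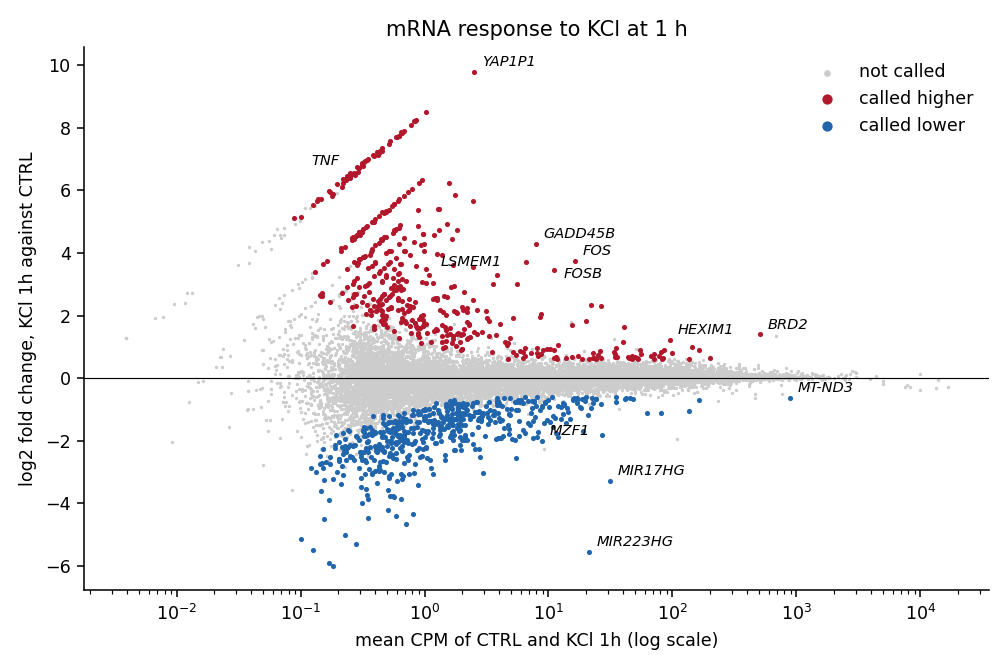
Log2 fold change of KCl 1h against CTRL for each of the 18095 genes tested, by mean CPM over the 6 libraries on a log axis; red points were called higher, blue points lower, grey points not called. Slanted rows of red points at the left are genes at or near 0 counts in CTRL, whose fitted fold changes depend on the prior count, and few points above 100 CPM are coloured (0.634%).

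The same treatment and time were measured in nuclear RNA, in libraries that are not those of the mRNA comparison. There 23.8% of 21929 genes were called, 15.3% higher and 8.5% lower. Of 16728 genes tested in both, 447 rose in mRNA and 1634 in nuclear RNA, and 390 rose in both, which is 87.2% of the mRNA rises and 23.9% of the nuclear ones. Likewise 530 fell in mRNA and 1074 in nuclear RNA, and 375 fell in both, 70.8% and 34.9%. The sign of the nuclear change was that of the mRNA change for 98.2% of mRNA rises and 95.5% of mRNA falls, where 51.6% of all genes were above 0 and 48.3% below 0 in nuclear RNA. FOS went from a range of 1.58 to 3.96 CPM in nuclear CTRL libraries to 17.9 to 32.2 CPM in nuclear KCl 1h libraries, a log2 fold change of 3.14 beside 3.75 in mRNA. GADD45B was at 3.68 beside 4.28, BRD2 at 1.33 beside 1.40, and HEXIM1 at 1.54 beside 1.21. Of 44 microRNA hosts tested in nuclear RNA 10 fell and 6 rose, and over the 31 tested in both fractions the median was -0.27 in nuclear RNA and -0.50 in mRNA.

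Whether the response differed between nuclear RNA and mRNA was asked with an interaction term over 12 libraries. It was called for 0.668% of 21095 genes, 0.588% with a higher and 0.0806% with a lower response in nuclear RNA. The 141 calls were 60 without nuclear CTRL replicate 2, 66 without its replicate 3, 74 without its replicate 1 and 67 without nuclear KCl 1h replicate 3. They were 78 without mRNA CTRL replicate 3, 81 and 76 without mRNA KCl 1h replicates 1 and 2, and 393 by DESeq2. MIR17HG, which lost most of its mRNA, was between 128 and 150 CPM in nuclear CTRL libraries and between 82.2 and 112 CPM in nuclear KCl 1h libraries, and the nuclear minus mRNA difference in log2 fold change was 2.72 (edgeR adjusted p 4.33e-05). SOCS1 stayed between 2.46 and 3.66 CPM in nuclear CTRL and 3.20 and 3.57 CPM in nuclear KCl 1h, and its difference was 2.11 (edgeR adjusted p 0.0306). SNHG19 differed by 1.02 (edgeR adjusted p 0.0457). For each of these 3, the fall called in mRNA was not called in nuclear RNA. A lower response in nuclear RNA was called for H4C3 and H3C12, which encode replication-dependent histones, whose messages end in a stem loop and normally have no poly(A) tail. H4C3 rose in mRNA from 0.882, 0.471 and 0.948 CPM to 1.97, 2.41 and 2.30 CPM while its nuclear level was 286 to 375 CPM in CTRL and 277 to 345 CPM in KCl 1h, a difference of -1.80 (edgeR adjusted p 0.00338). H3C12 differed by -1.77 (edgeR adjusted p 0.0337). Of 42 histone genes tested in mRNA 2 rose, H4C3 and H2BC14, 1 fell, H2BC9, and the median was -0.04. Over all genes in mRNA 2.51% rose and 2.94% fell. The call of H2BC14 was lost without any of 5 of the 6 libraries (2.18 to 3.08) and that of H2BC9 without CTRL replicate 2 or KCl 1h replicate 3 (-0.83 and -0.91).

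The largest positive differences lay in genes with low nuclear counts in CTRL. The pseudogene RPL13AP22 was at 0 CPM in all nuclear CTRL libraries and 1.07 to 2.13 CPM in nuclear KCl 1h, with an mRNA level near 23.6 and 26.1 CPM, and RPL23AP65 was alike. Both are processed copies of abundant ribosomal protein messages, as EEF1A1P4 is of an elongation factor message, so their counts are uncertain. MTUS2, a microtubule-associated protein gene that holds the pseudogene GAPDHP69 on the same strand, was at 0.0990 to 0.179 CPM in nuclear CTRL and 9.97 to 12.4 CPM in nuclear KCl 1h, while its mRNA was at 0.110, 0.0524 and 0.223 CPM and then 0.207, 0.134 and 0.302 CPM. Its difference in log2 fold change was 5.43 (edgeR adjusted p 0.00467).

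**Figure D5:**
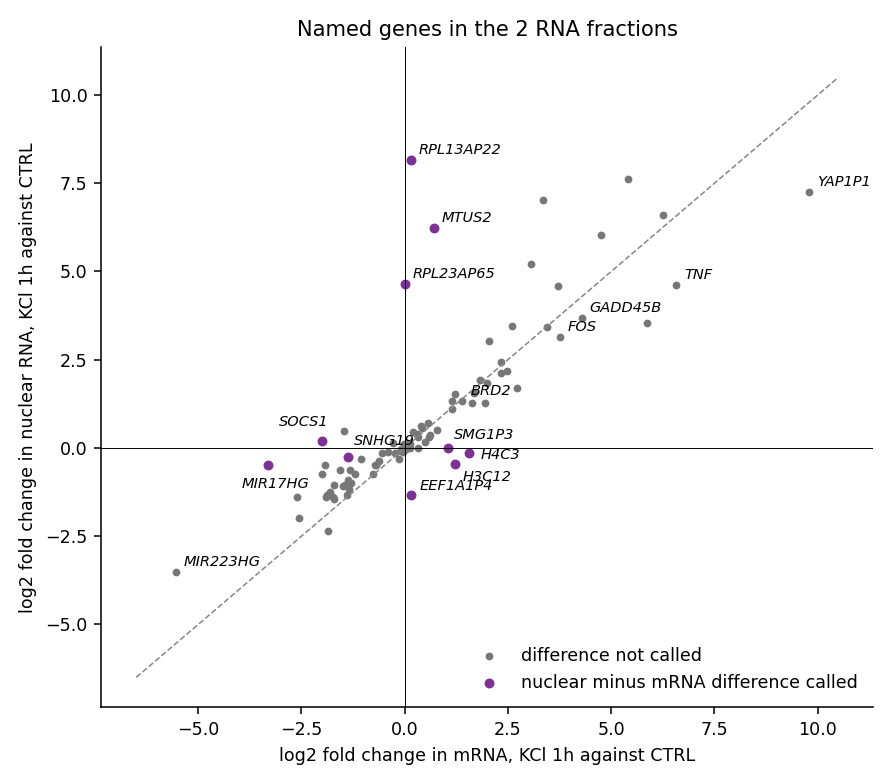
Log2 fold change of KCl 1h against CTRL in nuclear RNA by that in mRNA for the named genes tested in both; the dashed line marks equal change, and purple points are genes whose nuclear minus mRNA difference was called. GADD45B (4.28 in mRNA, 3.68 in nuclear RNA) lies near the line and MIR17HG (-3.30 and -0.48) away from it; genes at 0 counts in CTRL, such as YAP1P1 and TNF, have fitted values that depend on the prior count.

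Between 1 h and 3 h of KCl, 3.29% of genes were called, 1.37% higher at 3 h and 1.92% lower. The 596 calls were 364 without KCl 1h replicate 2. Of the 65 rises of at least 10 CPM, 17 were higher still at 3 h, 2 were lower and 46 were not called, and of the 69 falls 2 were higher, 7 were lower and 60 were not called. These counts share the KCl 1h libraries with the comparison that chose the genes. GADD45B was at 48.0 to 152 CPM after 3 h, 2.90 above its 1 h value on the log2 scale (edgeR adjusted p 7.79e-05), and SEMA4D at 77.5 to 82.3 CPM, 2.50 above it (edgeR adjusted p 2.97e-11). ZFP36, at 63.4 to 67.6 CPM (2.14 above, edgeR adjusted p 5.39e-10), and DUSP1, at 39.2 to 48.5 CPM (1.54 above, edgeR adjusted p 4.47e-07), were below the call at 1 h and were called between the times. Other feedback genes were mixed. ERRFI1, called at 1 h, was higher still at 3 h (2.35 above, edgeR adjusted p 4.37e-06), SPRY2 was called lower at 3 h (-0.84) and DUSP5 was not called (0.16). The median log2 fold change of that list against CTRL was 0.06 at 1 h and 0.43 at 3 h. FOS, at 34.1 to 53.3 CPM, and HEXIM1, at 166 to 219 CPM, were not called between the times, with differences of 0.62 and 0.52. MIR17HG was at 6.48 to 8.93 CPM and MIR223HG at 0.520 to 1.44 CPM at 3 h, neither called. NFAT5 was at 102 to 128 CPM, a difference of -0.13 without a call.

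JTE-607 for 1 h allowed a comparison with another agent at the same time. Between KCl 1h and JTE 1h 4.29% of genes were called, 2.56% higher in KCl and 1.73% lower. Of the 65 rises, 53 were also higher in KCl 1h than in JTE 1h and 0 lower, with a median difference of 0.83, and of the 69 falls 39 were lower and 0 higher, with a median of -0.75. These counts too share the KCl 1h libraries. FOS was at 0.829 to 2.67 CPM in JTE 1h and differed by 4.35 (edgeR adjusted p 9.32e-06), JUN was at 9.71 to 13.3 CPM and differed by 2.43 (edgeR adjusted p 5.98e-06), and BRD2 was at 215 to 295 CPM and differed by 1.49 (edgeR adjusted p 1.01e-06). MIR17HG was at 5.71 to 14.9 CPM in JTE 1h, and its difference of -1.02 was not called (edgeR adjusted p 0.0568), but was called with the replicate block (-0.98, edgeR adjusted p 0.0442). SOCS1, at 0.207 to 0.786 CPM in JTE 1h, was not called either. In JTE 1h against CTRL, MIR17HG was itself called lower (log2 fold change -2.28, edgeR adjusted p 0.000219). There SOCS1 (-1.49) and MIR223HG (-0.74) were not called. MZF1, at 11.9 to 13.8 CPM, differed by -1.90 (edgeR adjusted p 5.85e-07), and the lncRNA MRPL20-DT, at 12.6 to 16.9 CPM in JTE 1h and 1.97, 2.63 and 2.84 CPM in KCl 1h, by -2.49 (edgeR adjusted p 4.49e-08).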

How the data were processed

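RNA of K562 cells was sequenced from stranded libraries, mRNA after oligo-dT selection and nuclear RNA after removal of ribosomal RNA. The deposited files hold, for each gene, an unnormalized count of read pairs. To make them the authors trimmed and deduplicated reads without molecular identifiers, aligned them to GRCh38.p14 with STAR, allowing no long introns and keeping unique hits, and counted exons with featureCounts without a strand setting. Counting error is therefore a lower limit of the error. Symbols and types came from GENCODE 44, in which 57532 of 58243 gene IDs were found, and promoter and microRNA sequences from RefSeq tables of GRCh38.p14.

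Counts were tested in R 4.3.3 with the quasi-likelihood test of edgeR 4.0.16 (TMM factors, expression filter by group, robust dispersion), over 27 mRNA libraries for the mRNA comparisons, 15 nuclear libraries for nuclear RNA and 12 libraries for the nuclear minus mRNA difference. DESeq2 1.42.0, other scalings and filters, thinning to 16439848 counts, fits of 2 groups alone, a replicate block and leaving out each replicate were the alternatives. The script was tested on simulated data. Depth was 17855236 to 62953314 counts in the 6 libraries compared. No spike-in was used here, so changes are relative to the library.

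The members and gene lists were chosen with earlier results of these data known. Genes were named by this rule: the 15 largest called rises and falls with a symbol, a mean of 10 CPM or more in either group and groups that did not overlap; the first tested member and up to 4 called members of each list; the 5 largest lower bounds of fold among called genes with at most 3 counts in each CTRL library; and the 3 largest called differences in each direction of the other tests at 10 CPM. EGR1, ATF3, IER2, JUNB, ID2, SLC38A2, SLC5A3, SLC6A6, AKR1B1, MIR503HG, MIR4453HG, MIRLET7IHG, SPRY2, DUSP5, GSTO2 and MARVELD2 were named after their values were seen. A gene that the rule names is not reported here. Same-numbered libraries deviated together between KCl 1h and KCl 3h (r 0.583 to 0.671), KCl 1h and JTE 1h (0.729 to 0.825) and within nuclear RNA (0.588 to 0.891), correlations across genes, so these numbers pair the samples.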

Additional observations from a re-analysis of the deposited data

Results flagged for a closer look

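The response to KCl at 1 h was called as different between nuclear RNA and mRNA, by the interaction term, for 141 genes. With the replicate block the count was 310, with DESeq2 393, and without nuclear CTRL replicate 2 it was 60. The block includes the mRNA CTRL libraries, whose numbers did not pair them with KCl 1h. Among named genes the nuclear minus mRNA difference in log2 fold change was 2.72 for MIR17HG, 2.11 for SOCS1, 1.02 for SNHG19, 7.99 for RPL13AP22, 5.43 for MTUS2 and 4.54 for RPL23AP65. It was -1.16 for SMG1P3, -1.80 for H4C3, -1.77 for H3C12 and -1.61 for EEF1A1P4.

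Between KCl for 3 h and for 1 h 596 genes were called by the test of the difference in edgeR. Higher at 3 h, by the log2 difference given after each name, were GADD45B 2.90, LSMEM1 1.63, FOSB 1.43, SNAI1 1.57, SEMA4D 2.50, PNRC1 1.44, IER3 1.19, NR4A2 1.45, JUN 1.58, BRD2 0.90, ZFP36L1 0.86 and KLF4 1.48. So were DUSP1 1.54, ERRFI1 2.35, ZFP36 2.14, MIR9-1HG 1.24, SNHG19 1.10, H2BC14 1.69, H2BC9 0.94, ZNF439 1.25, FGF18 2.50, IQCN 3.44 and MASP2 1.59. Lower at 3 h were TNFRSF12A -1.45, ERVK3-1 -1.40, CLUHP3 -0.80, ZNF767P -0.73, TXNIP -1.85, C2orf69 -1.68 and ZBTB6 -1.67. Both times share the untreated libraries, and each difference is between the treated groups themselves.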

How the results depend on the processing

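Among values of named genes under the alternatives 1443 kept their side of the threshold, 54 lost the call and 9 gained it. Of values called in either fit 0 reversed direction. Some genes without a call did change sign, such as ATF4 (-0.33 to 0.85) and GADD45A (-0.43 to 0.18). Counts of calls moved mostly with the genes or libraries entered. Against 986 calls for KCl 1h, a mean of at least 10 CPM left 104, fitting only the 2 groups 465, and the 2 groups with the replicate block, added after seeing the data, 552. Leaving out a replicate gave 710 to 1029. For KCl 3h against 1h these were 226 and 294, no filter gave 990, and leaving out a replicate 364 (without KCl 1h replicate 2) to 588. For KCl 1h against JTE 1h they were 174 and 299, no filter gave 1170, and leaving out a replicate 582 to 792. For nuclear RNA 10 CPM gave 377, no filter 8022, and leaving out a replicate 4899 to 5569. The nuclear minus mRNA count was 393 by DESeq2, 400 with no filter, 22 at 10 CPM, 310 with the replicate block, and 60 (without nuclear CTRL replicate 2) to 166 when a replicate was left out. Beyond the genes and samples entered, the cause was not tested.

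The share of calls that were higher moved from 46.0% to 57.7% for KCl 1h with no filter, from 41.6% to 24.3% at 10 CPM and 52.4% in 2 groups for KCl 3h against 1h, and from 64.3% to 53.6% at 10 CPM in nuclear RNA. For KCl 1h against CTRL same-numbered libraries correlated at r -0.135, -0.134 and 0.846, while CTRL replicate 1 correlated with KCl 1h replicate 2 at 0.715 and CTRL replicate 2 with KCl 1h replicate 1 at 0.754. The paper's mapping statistics give 19031221 mapped reads for its mRNA CTRL replicate 1 and 18333127 for its replicate 2. These are the total counts of CTRL replicates 2 and 1 as numbered here. The numbers of CTRL replicates 1 and 2 may thus be exchanged, and the block as numbered may set unlike libraries together. With that limit, the replicate block gave 1200 calls, 982 of them shared, and in the 2 groups with it FOS was not called (3.68). Where the numbers pair the samples, the replicate block gave 785 calls for KCl 3h against 1h, 1038 for KCl 1h against JTE 1h and 5683 in nuclear RNA, and 0 named genes lost a call there. Thinning all libraries to 16439848 counts gave 780 calls, 751 of them shared.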

Other observations

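Some stress genes varied more within groups than between them, and the high libraries were the same. ATF3 was at 5.07, 47.8 and 5.80 CPM in CTRL replicates 1 to 3 and 61.0, 9.01 and 10.1 CPM in KCl 1h replicates 1 to 3. ATF4 was at 149, 420 and 157 CPM and then 442, 195 and 194 CPM. In both genes CTRL replicate 2 and KCl 1h replicate 1 stood above the others of their group. Across genes these libraries correlated at r 0.754, CTRL replicate 1 with KCl 1h replicate 2 at 0.715, and the replicates 3 at 0.846. With libraries set together in this way, each treated value of both genes was above its untreated one. The test of KCl 1h against CTRL did not pair libraries, and a fit with this pairing was not run.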
